A study of Mus musculus with 6 samples.

Results

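The ribbon synapse genes described here are 10 genes whose products form or serve the presynaptic terminal of photoreceptors and bipolar cells: Ctbp2, Bsn, Pclo, Rims2, Erc2, Unc13b, Cacna1f, Cacna2d4, Cacnb2 and Cabp4. They were taken by symbol from the gene table of the files, which has 32285 genes, and all 10 were found there. The study is a single-nucleus RNA sequencing experiment on retinas of wild-type (WT) C57BL6/J mice with 3 libraries from animals of 3 months and 3 from animals of 18 months. Its title concerns polyunsaturated fatty acid supplementation, and no supplemented animals are among the libraries analysed here, so every group shares the same genotype and strain and differs by age. The labels do not give sex, do not say how many retinas or mice went into a library and do not say that libraries came from separate animals, so the p-values below rest on how these libraries scatter, and that scatter may be technical.

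A synaptic ribbon is an electron-dense plate anchored at the active zone, the release site of the presynaptic membrane, where it tethers synaptic vesicles and allows release to go on without pause. Rods, cones and bipolar cells of the retina use ribbon synapses, whereas amacrine, horizontal and ganglion cells do not. Release at the ribbon is driven by an L-type calcium channel whose pore is the product of Cacna1f (Cav1.4), with auxiliary subunits from Cacna2d4 and Cacnb2 and the calcium-binding protein CaBP4 from Cabp4. RIBEYE, the main building block of the ribbon, is made from the Ctbp2 locus. Bassoon (Bsn) and piccolo (Pclo) are large scaffold proteins of the active zone, RIM2 (Rims2) and ELKS2/CAST (Erc2) organise channels and vesicles there, and Munc13-2 (Unc13b) prepares vesicles for fusion.

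The Ctbp2 locus has more than 1 start of transcription, which bears on what its counts can show. In GENCODE M21 (build GRCm38, the same as mm10) the gene lies at chr7:132987563-133124354, minus strand. Transcript Ctbp2-201 begins at base 133123367 and codes for 445 residues, the transcriptional corepressor CtBP2. Transcript Ctbp2-214 begins inside the gene at base 133015248 and codes for 988 residues, the RIBEYE form, whose second part is shared with CtBP2. Both transcripts end within the same 3' exon region, at bases 132987621 and 132987578, and a 3' tag counted per gene does not separate them, so that every Ctbp2 value below is a sum over both forms. The annotation also carries a model of Fgfr2 that spans the same strand across Ctbp2, and how the authors' counting treated reads in the shared part is not given in the sources used here. Of the 10 genes, 7 have a window from 250 bases before to 50 after a start of transcription in the RefSeq table of build GRCm38.p6 (9 windows in all), and Rims2, Cacna2d4 and Cabp4 have none there. Shown are 2 windows of Ctbp2, because transcription of the RIBEYE form begins in 1 of them, called the internal start here. The other, called the upstream window, lies further upstream within the gene, and it does not hold the start of Ctbp2-201. Also shown is the window of Cacna1f, because its level differed most between cell classes among the genes with a window. All are written 5' to 3' on the strand of the gene. The upstream window is chr7:133081811-133082110 (minus strand), the internal start chr7:133015198-133015497 (minus strand) and the window of Cacna1f chrX:7606853-7607152 (plus strand). Capitals mark TAATCC, the core site of photoreceptor homeobox factors such as CRX, which appears as its reverse complement GGATTA, together with the ATG that opens the coding part of Ctbp2-214.
Ctbp2 upstream window: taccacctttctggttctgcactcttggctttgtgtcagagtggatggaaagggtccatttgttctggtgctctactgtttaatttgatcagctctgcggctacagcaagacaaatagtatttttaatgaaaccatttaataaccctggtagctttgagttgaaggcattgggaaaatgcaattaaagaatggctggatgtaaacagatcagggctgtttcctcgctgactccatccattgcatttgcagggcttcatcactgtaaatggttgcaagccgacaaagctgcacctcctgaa
Ctbp2 internal start: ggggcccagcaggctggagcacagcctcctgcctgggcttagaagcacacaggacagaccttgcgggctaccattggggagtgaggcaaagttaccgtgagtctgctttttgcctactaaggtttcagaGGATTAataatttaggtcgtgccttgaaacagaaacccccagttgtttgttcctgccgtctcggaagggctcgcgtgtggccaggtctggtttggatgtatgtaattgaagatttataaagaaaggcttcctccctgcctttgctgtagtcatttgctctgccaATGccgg
Cacna1f start: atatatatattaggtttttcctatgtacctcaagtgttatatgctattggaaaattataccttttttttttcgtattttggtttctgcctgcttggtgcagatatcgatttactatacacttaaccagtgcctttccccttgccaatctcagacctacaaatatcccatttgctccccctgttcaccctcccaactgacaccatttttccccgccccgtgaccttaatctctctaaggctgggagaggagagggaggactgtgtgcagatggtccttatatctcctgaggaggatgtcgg
TAATCC was searched on both strands, together with TAATTA, a palindrome that no other searched motif overlaps. TAATCC occurs in 1 of the 9 windows, 121 bases before the internal start of Ctbp2, and in 7.06% of all 32851 windows of 300 bases in the table. TAATTA is in none of the 9 windows and in 5.29% of all windows. These are matches of letters and show no binding.

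The 6 libraries held between 15905689 and 29340705 UMIs (unique molecular identifiers, 1 per captured RNA molecule), and 50241 of 62893 barcodes were kept as nuclei, with medians of 982 to 2343 UMIs by library. Between 11 and 74 barcodes were shared by each pair of libraries, at most 0.506% of the smaller one. Nuclei were clustered without the 10 genes and without a wider list of 73 synaptic genes, and 25 of 36 clusters, with 28706 nuclei, were named by their markers. Names such as rods or amacrine cells below stand for rod-like or amacrine-like clusters. Clusters with the amacrine markers Chat (839 nuclei) and Dab1 (788 nuclei) among their leading genes had too few raised markers and stayed unnamed. The amacrine class therefore may not hold every amacrine type. All 12 rod markers were detected in the rod class. Of the marker lists of the other classes no marker was at 0 in rods either, with summed levels of 1558 to 2289 CPM for cone markers and 574 to 1042 CPM for ganglion cell markers, where CPM stands for counts of a gene scaled to 1e+06 UMIs of a class in a library. Of the libraries, 18-month replicate 3 stood apart, since 82.2% of its nuclei fell in clusters without a name, against 22.1% to 37.1% in the other libraries, and it gave only 116 of the 9047 rod nuclei. Replicate 1 of both ages was processed with Cell Ranger release 7.1.0 and the other 4 libraries with release 7.2.0, per the file headers, so release and replicate number coincide for that pair. Levels of single genes are given in the same unit. They are compared between classes and ages but not between genes, since 3' tags, gene length and priming inside introns affect genes unequally.

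Free RNA in a suspension of nuclei gives UMIs in droplets of every kind, and the level of rod RNA therefore limits what can be read as expression outside photoreceptors. The summed level of the 12 rod markers in retinal ganglion cells was between 8.66% and 27.1% of that in rods of the same library, with a median of 9.47%. The highest value came from 18-month replicate 3 and the next from 3-month replicate 1 at 16.6%. For Sag, which encodes rod arrestin, the ganglion cell level was 4.77% to 21.6% of the rod level. Cabp4 stood at 6.74% to 12.7% (median 8.65%), Cacna1f at 3.11% to 14.8% (median 4.83%) and Cacna2d4 at 2.67% to 25.3% (median 5.34%). These 3 genes were therefore at or near the background in ganglion cells and are not read as expressed there. Ctbp2 (median 31.1%), Cacnb2 (28.2%) and Unc13b (34.3%) had medians above that of the rod markers, and Rims2 (62.8%), Pclo (85.3%), Erc2 (133%) and Bsn (187%) were near or above the rod level itself.

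**Figure D1:**
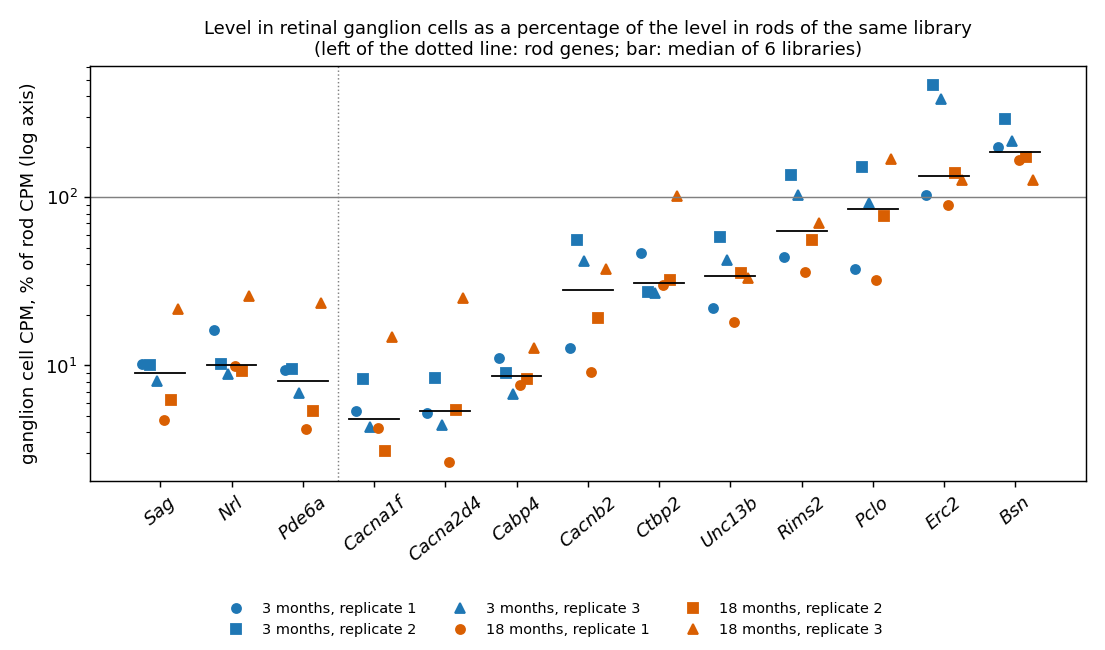
Level of 3 rod genes (left of the dotted line) and of the 10 ribbon synapse genes in retinal ganglion cells, as a percentage of the CPM in rods of the same library, on a log axis. Points are the 6 libraries (blue, 3 months; orange, 18 months) and bars the medians: Cacna1f, Cacna2d4 and Cabp4 overlap the range of the rod genes, and Bsn lies above 100% in every library.

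The question put to the cell classes was whether the 10 genes were higher in the 4 classes with ribbon synapses (rods, cones, rod bipolar and cone bipolar cells) than in the 3 with conventional synapses (amacrine, horizontal and retinal ganglion cells). Of the 10 genes, 8 were higher and 2, Bsn and Erc2, were lower, and all 10 passed the edgeR quasi-likelihood test at an adjusted p of 0.05. Of all 10497 genes tested, 69.3% passed in either direction, 35.2% as higher and 34.1% as lower, so that passing alone sets no gene apart. The median difference over the 10 genes was 1.07 on the log2 scale, against 0.02 over all genes tested. The sizes fell in order from Cacna2d4 and Cacna1f through Cabp4, Unc13b, Ctbp2 and Cacnb2 to Rims2 and Pclo. Without 18-month replicate 3 all 10 genes again passed, at 3.52 for Cacna2d4 and 3.22 for Cacna1f. In the fit restricted to release 7.1.0, 9 of 10 passed (47.7% of genes) and in that restricted to release 7.2.0, 8 of 10 (67% of genes). In the orders of class means given below, the libraries' ranges of neighbouring classes overlapped for every gene, except for Unc13b between cone bipolar cells and Müller glia.

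**Figure D2:**
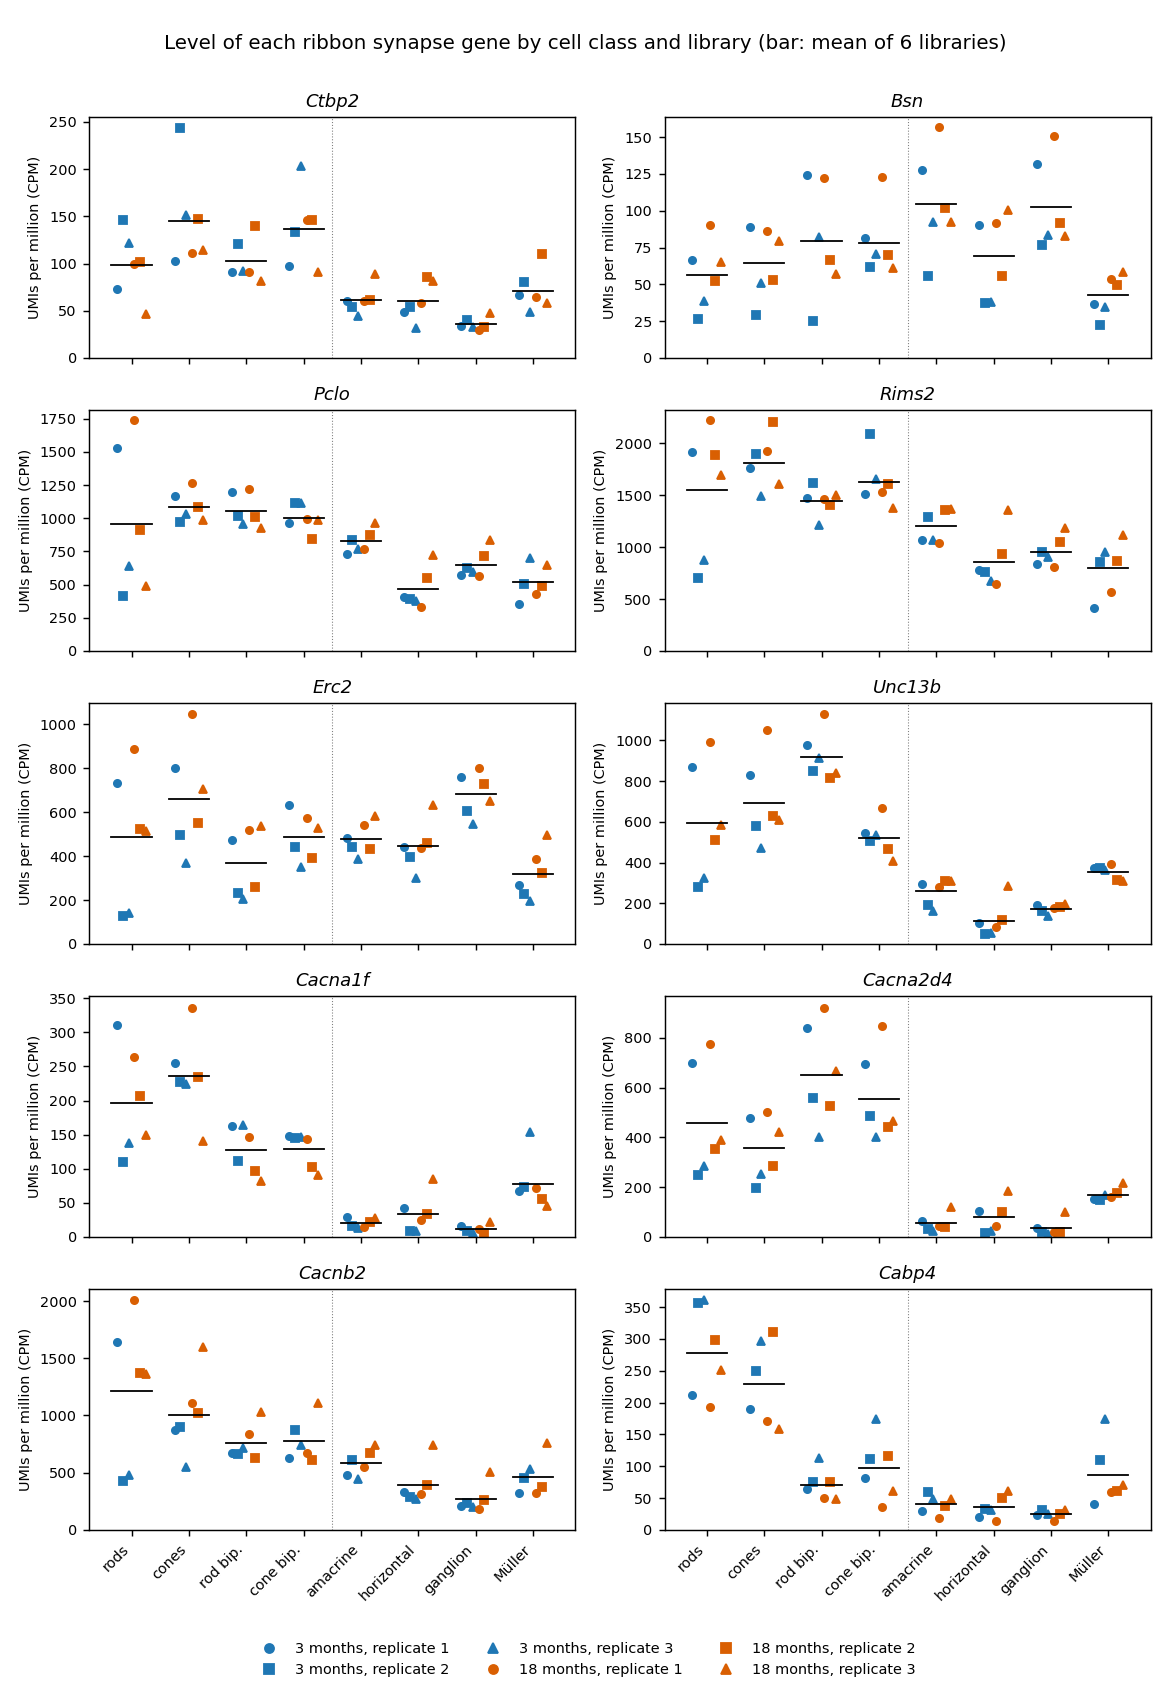
CPM of each of the 10 genes in 8 cell classes, 1 panel per gene with a linear axis from 0. Points are the 6 libraries (blue, 3 months; orange, 18 months; marker shape, replicate), bars the mean of 6 libraries, and the dotted line separates ribbon-synapse classes (left) from the others: Cacna1f, Cacna2d4 and Unc13b are higher on the left, whereas Bsn and Erc2 reach their highest mean on the right.

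Among the scaffold genes, Ctbp2 followed the ribbon classes, Pclo did so to a smaller degree and Bsn did not. In rods, Ctbp2 measured 72.6, 146 and 122 CPM in 3-month replicates 1 to 3 and 99.0, 102 and 46.5 CPM in 18-month replicates 1 to 3. The lowest of these came from the small rod sample of 18-month replicate 3 and rests on 5 UMIs, and the 2 ages overlapped. In ganglion cells it measured 34.0, 39.7 and 33.0 CPM in 3-month replicates 1 to 3 and 29.6, 32.9 and 47.2 CPM in 18-month replicates 1 to 3. Rods were above ganglion cells in 5 libraries, and in 18-month replicate 3 they were not. Class means over 6 libraries ran from cones (145 ± 52.3 CPM, SD, n = 6) and cone bipolar cells (136 ± 40.5) through rod bipolar cells (103 ± 22.7) and rods (98.0 ± 35.1) to Müller glia (71.4 ± 21.7), amacrine (61.4 ± 14.7), horizontal (59.9 ± 20.6) and ganglion cells (36.1 ± 6.38). The ribbon classes exceeded the conventional ones by 1.11 ± 0.11 (SE) on the log2 scale (edgeR adjusted p = 3.35e-12), with library differences of 0.95, 1.64, 1.90 at 3 months and 1.21, 1.23, 0.18 at 18 months. Within a release it was 0.96 in the libraries of release 7.1.0 and 1.18 in those of release 7.2.0. All 6 libraries were above 0, and every ribbon class was above every conventional class in 5 of them.

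Pclo, the gene of piccolo, varied over a wider range between rod libraries than between class means. Its rod values were 1527, 414 and 641 CPM in 3-month replicates 1 to 3 and 1743, 915 and 493 CPM in 18-month replicates 1 to 3. Both libraries of release 7.1.0 were above the other 4. In cones it measured 1165, 969 and 1032 CPM in 3-month replicates 1 to 3 and 1267, 1089 and 987 CPM in 18-month replicates 1 to 3, a range within which the 2 ages overlapped. The lowest class mean was that of horizontal cells, 464 ± 148 CPM (SD, n = 6), and the highest that of cones, 1085 ± 114. The ribbon classes were higher by 0.49 ± 0.12 (SE) (edgeR adjusted p = 3.47e-04). By library the differences were 1.11, 0.48, 0.71 at 3 months and 1.28, 0.46, -0.03 at 18 months, with 18-month replicate 3 at no difference. The fitted difference was 1.02 in the libraries of release 7.1.0 and 0.18 in those of release 7.2.0, and in the latter it did not pass (edgeR adjusted p = 0.194, range over all alternatives 1.83e-19 to 0.194).

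Bsn, the gene of bassoon, had its highest class means in conventional neurons. Amacrine cells measured 128, 55.8 and 92.7 CPM in 3-month replicates 1 to 3 and 157, 102 and 92.2 CPM in 18-month replicates 1 to 3. Rods measured 66.4, 26.2 and 38.6 CPM in 3-month replicates 1 to 3 and 90.4, 52.3 and 65.1 CPM in 18-month replicates 1 to 3. The amacrine value was above the rod value in each library. Class means were 105 ± 34.4 CPM in amacrine cells (SD, n = 6), 103 ± 30.8 in ganglion cells, 79.6 ± 38.7 in rod bipolar cells, 78.0 ± 23.3 in cone bipolar cells, 69.0 ± 28.6 in horizontal cells, 64.5 ± 24.1 in cones, 56.5 ± 22.7 in rods and 42.4 ± 13.5 in Müller glia. Amacrine and ganglion cells did not differ beyond their spread. The difference of ribbon minus conventional classes was -0.60 ± 0.09 (SE) on the log2 scale (edgeR adjusted p = 3.66e-08), and it was -0.52 in the libraries of release 7.1.0 and -0.70 in those of release 7.2.0. All 6 libraries were below 0, at -0.38, -0.70, -0.19 at 3 months and -0.31, -0.42, -0.49 at 18 months. In the samples, the values of release 7.1.0 were the highest of their age in rods, cones, rod bipolar, cone bipolar, amacrine and ganglion cells.

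Rims2, Erc2 and Unc13b, which act in docking and priming of vesicles, took 3 different courses. Rims2, the gene of RIM2, measured 1912, 706 and 878 CPM in 3-month replicates 1 to 3 and 2226, 1889.8 and 1694 CPM in 18-month replicates 1 to 3 in rods. The values of 3-month replicates 2 and 3 were far below the rest. In ganglion cells it measured 842, 955 and 905 CPM in 3-month replicates 1 to 3 and 805, 1048 and 1188 CPM in 18-month replicates 1 to 3. The means of the 4 ribbon classes lay between 1445 ± 134 CPM in rod bipolar cells and 1814 ± 253 CPM in cones (SD, n = 6), and those of amacrine, ganglion and horizontal cells were 1199 ± 157, 957 ± 142 and 859 ± 266. The difference between ribbon and conventional classes was 0.49 ± 0.11 (SE) on the log2 scale (edgeR adjusted p = 6.75e-05) and positive in 6 of 6 libraries. It was 0.83 in the libraries of release 7.1.0 and 0.29 in those of release 7.2.0, where it did not pass (edgeR adjusted p = 0.0521, range over all alternatives 8.42e-16 to 0.0521).

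Erc2, the gene of ELKS2, was the member whose direction depended on the libraries. Ganglion cells, which had the highest class mean at 682 ± 97.2 CPM (SD, n = 6), measured 759.6, 606 and 548 CPM in 3-month replicates 1 to 3 and 801, 729 and 651 CPM in 18-month replicates 1 to 3. In rods it measured 732, 129 and 142 CPM in 3-month replicates 1 to 3 and 885, 522 and 512 CPM in 18-month replicates 1 to 3. Within rods the lowest value was 129 CPM and the highest 885 CPM, so the spread was wider than any difference between class means. The means of the other classes were 662 ± 244 in cones, 486 ± 110.2 in cone bipolar cells, 478 ± 73.2 in amacrine cells, 445 ± 109 in horizontal cells, 370.2 ± 154 in rod bipolar cells and 316 ± 112 in Müller glia. Ribbon minus conventional classes came to -0.39 ± 0.12 (SE) on the log2 scale (edgeR adjusted p = 0.00307). By library it was 0.25, -0.73, -0.69 at 3 months and 0.34, -0.35, -0.14 at 18 months, positive in both libraries of release 7.1.0 and negative in the other 4. The fitted value was 0.13 in the libraries of release 7.1.0 and -0.70 in those of release 7.2.0 (edgeR adjusted p = 0.195 in the former, range over all alternatives 3.19e-05 to 0.195), and scaling by library size alone gave -0.19, which did not pass. No direction is therefore read for Erc2.

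Unc13b, the gene of Munc13-2, was highest in rod bipolar cells, at 978, 847 and 913 CPM in 3-month replicates 1 to 3 and 1128, 817 and 839 CPM in 18-month replicates 1 to 3. All 6 values were above the cone value of the same library. Horizontal cells, the lowest class, measured 105, 47.1 and 53.9 CPM in 3-month replicates 1 to 3 and 82.1, 119.6 and 282 CPM in 18-month replicates 1 to 3. Here 18-month replicate 3 was the highest of 6 by a wide margin. Means of the other classes were 693 ± 209 CPM in cones (SD, n = 6), 593 ± 287 in rods, 521 ± 88.0 in cone bipolar cells, 355 ± 33.8 in Müller glia, 258 ± 66.1 in amacrine cells and 174 ± 21.5 in ganglion cells. The ribbon classes were higher by 1.77 ± 0.12 (SE) on the log2 scale (edgeR adjusted p = 1.33e-17), with 2.15 in the libraries of release 7.1.0 and 1.55 in those of release 7.2.0. In 6 of 6 libraries every ribbon class was above every conventional class.

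Of the genes of the Cav1.4 channel complex, Cacna2d4, Cacna1f and Cabp4 had the widest differences between ribbon and conventional classes among the 10. Cacna1f, on the X chromosome at chrX:7607083-7635196, plus strand, measured 311, 109.8 and 138 CPM in 3-month replicates 1 to 3 and 263, 207 and 149 CPM in 18-month replicates 1 to 3 in rods. In cones it measured 255, 228 and 224 CPM in 3-month replicates 1 to 3 and 336, 235 and 141 CPM in 18-month replicates 1 to 3. Ganglion cells, at the background, measured 16.6, 9.07 and 5.95 CPM in 3-month replicates 1 to 3 and 11.2, 6.44 and 22.1 CPM in 18-month replicates 1 to 3. Photoreceptor and ganglion cell values did not overlap in any library. Class means were 237 ± 62.7 CPM in cones (SD, n = 6), 196 ± 78.6 in rods, 129 ± 25.6 in cone bipolar cells, 127 ± 35.4 in rod bipolar cells, 78.0 ± 38.4 in Müller glia, 33.9 ± 28.3 in horizontal cells and 20.6 ± 6.76 in amacrine cells. The difference of ribbon minus conventional classes was 2.97 ± 0.14 (SE) on the log2 scale (edgeR adjusted p = 2.97e-22), and it was 3.10 in the libraries of release 7.1.0 and 2.86 in those of release 7.2.0. By library it was 2.89, 3.57, 4.04 at 3 months and 3.61, 3.05, 1.54 at 18 months, smallest in 18-month replicate 3.

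Cacna2d4, the gene of the α2δ-4 auxiliary subunit, had its highest mean in rod bipolar cells. There it measured 838, 559.9 and 399.9 CPM in 3-month replicates 1 to 3 and 921, 528 and 668 CPM in 18-month replicates 1 to 3. Rods measured 697, 251 and 285 CPM in 3-month replicates 1 to 3 and 776, 354 and 391 CPM in 18-month replicates 1 to 3. Ganglion cells measured 36.4, 21.0 and 12.6 CPM in 3-month replicates 1 to 3 and 20.8, 19.3 and 99.1 CPM in 18-month replicates 1 to 3, where 18-month replicate 3 stood above the other 5. Class means were 652 ± 197 CPM in rod bipolar cells (SD, n = 6), 556 ± 176 in cone bipolar cells, 459 ± 222 in rods, 356 ± 128 in cones, 169.8 ± 24.7 in Müller glia, 78.4 ± 64.4 in horizontal cells and 54.5 ± 35.2 in amacrine cells. The difference of 3.23 ± 0.17 (SE) on the log2 scale was the largest of the 10 genes (edgeR adjusted p = 4.42e-20), and every ribbon class was above every conventional class in 6 of 6 libraries. By library it ran 3.39, 3.86, 4.06 at 3 months and 4.40, 3.15, 1.86 at 18 months, again smallest in 18-month replicate 3. Within a release it was 3.69 in the libraries of release 7.1.0 and 2.95 in those of release 7.2.0.

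Cacnb2, the gene of the β2 subunit, was also found outside the ribbon classes. In amacrine cells it stood at 27.5% to 143% of the rod level, above the summed rod markers in each library. In ganglion cells of release 7.1.0 it was at 12.6% in 3-month replicate 1 and 9.15% in 18-month replicate 1. The summed rod markers there were at 16.6% and 9.99%, so Cacnb2 was not above the background in those ganglion cells. In rods it measured 1639, 429 and 482 CPM in 3-month replicates 1 to 3 and 2010.5, 1370.2 and 1359 CPM in 18-month replicates 1 to 3, with 3-month replicates 2 and 3 far below the rest. Amacrine cells measured 482, 613 and 448 CPM in 3-month replicates 1 to 3 and 553, 675 and 745 CPM in 18-month replicates 1 to 3. Means were 1215 ± 634 CPM in rods (SD, n = 6), 1008 ± 345 in cones, 774 ± 188 in cone bipolar cells, 758 ± 155 in rod bipolar cells, 586 ± 114 in amacrine cells, 463 ± 169 in Müller glia, 392 ± 178 in horizontal cells and 267 ± 121 in ganglion cells. The ribbon classes were higher by 1.03 ± 0.12 (SE) on the log2 scale (edgeR adjusted p = 2.80e-10), at 1.43 in the libraries of release 7.1.0 and 0.79 in those of release 7.2.0.

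Cabp4 was the gene closest to a photoreceptor gene in its distribution. Rods measured 212, 356 and 360.5 CPM in 3-month replicates 1 to 3 and 192, 298 and 251 CPM in 18-month replicates 1 to 3. Rod bipolar cells measured 64.2, 75.7 and 113 CPM in 3-month replicates 1 to 3 and 50.1, 74.7 and 48.9 CPM in 18-month replicates 1 to 3. The lowest rod value was above the highest rod bipolar value. Class means were 278 ± 71.8 CPM in rods (SD, n = 6), 229 ± 65.6 in cones, 96.9 ± 48.6 in cone bipolar cells, 86.1 ± 48.8 in Müller glia, 71.0 ± 23.5 in rod bipolar cells, 40.3 ± 15 in amacrine cells, 35.3 ± 17.8 in horizontal cells and 25.2 ± 6.42 in ganglion cells. In rod bipolar cells Cabp4 was 19.5% to 31.3% of the rod level, close to the 19.8% to 36.1% of the summed rod markers there, and Sag was at 23.8% to 32.8%. The presence of Cabp4 in bipolar cells was thus not detectable above the level of rod RNA in them. Its difference between ribbon and conventional classes was 2.01 ± 0.11 (SE) on the log2 scale (edgeR adjusted p = 2.09e-21), with 2.26 in the libraries of release 7.1.0 and 1.89 in those of release 7.2.0. On the other strand the annotation places Gpr152 over Cabp4. In Müller glia Cabp4 was at 19.5% to 48.3% of the rod level (median 29.3%) and Cacna1f at 21.8% to 111% (median 29.0%). The summed rod markers there were at 23.9% to 39.3% (median 28.6%). Cabp4 is therefore not read as expressed in Müller glia. Cacna1f stood at 67.0% and 111% in 3-month replicates 2 and 3, where the summed rod markers were at 25.8% and 31.3%. Neither its presence nor its absence in Müller glia is therefore read.

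**Figure D3:**
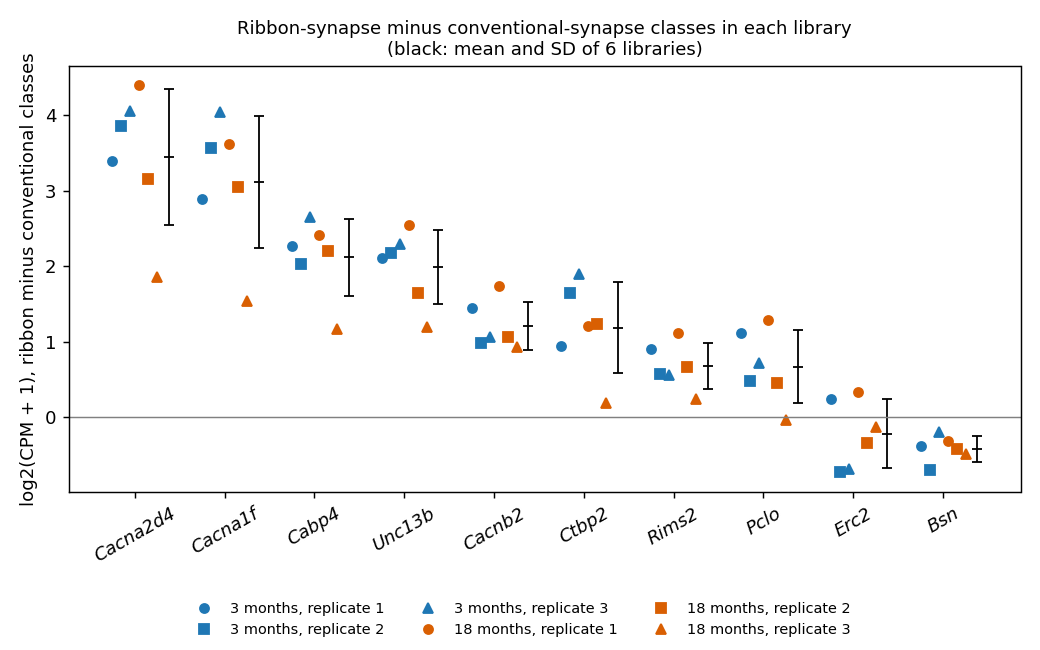
Mean log2(CPM + 1) of the 4 ribbon-synapse classes minus that of the 3 conventional-synapse classes in each library, for the 10 genes in order of their mean. Points are libraries (blue, 3 months; orange, 18 months) and black marks the mean and SD of 6 libraries: Cacna2d4 and Cacna1f are highest, Erc2 lies on both sides of 0 and Bsn lies below 0 in all 6, and 18-month replicate 3 gives the lowest value for 8 of the 10 genes.

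Photoreceptors and bipolar cells were compared next, since both use ribbons. Of the 10 genes, 5 passed (52.2% of the 10497 genes tested did so, 26.8% as higher in photoreceptors). Higher in photoreceptors than in bipolar cells were Cabp4, by 1.65 ± 0.13 (SE) on the log2 scale (edgeR adjusted p = 4.66e-15), Cacna1f, by 0.77 ± 0.16 (SE) (adjusted p = 7.93e-05), and Cacnb2, by 0.47 ± 0.16 (SE) (adjusted p = 0.00997). Lower were Cacna2d4, at -0.62 ± 0.19 (SE) (edgeR adjusted p = 0.00576), and Bsn, at -0.45 ± 0.12 (SE) (edgeR adjusted p = 0.00146). Ctbp2 (0.02 ± 0.14), Rims2 (0.09 ± 0.14), Pclo (-0.05 ± 0.16), Unc13b (-0.19 ± 0.15) and Erc2 (0.32 ± 0.16) did not pass (log2 difference ± SE). Cacnb2 no longer passed without 3-month replicate 1, at 0.39, without 18-month replicate 1, at 0.35, or without 18-month replicate 2, at 0.40, and within release 7.2.0 it was 0.20. Cacna2d4 did not pass without 3-month replicate 2, at -0.48, where Erc2 did, at 0.45. Within release 7.1.0, 8 genes passed (38.9% of genes), among them Pclo at 0.26, Rims2 at 0.27 and Erc2 at 0.54, and within release 7.2.0, 3 genes passed (42.5%).

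Rods against cones gave 0 of 10 genes past the edgeR test, against 31.9% of all genes tested, 19.7% as higher and 12.2% as lower in rods. The summed rod markers in cones were 32.3% to 61.9% of the level in rods of the same library (median 52.5%). Sag was there at 59.1% to 89.2%. The part of rod RNA in the cone values was not tested, and a small difference is not read as likeness of the 2 classes. At an unadjusted p of 0.05, 2 of the 10 passed, as did 4334 of the 10497 genes tested. DESeq2 called 1 of the 10, Erc2, at -0.54, and its share over all genes was not counted. The differences closest to the threshold were Cabp4, higher in rods by 0.36 ± 0.15 (SE) on the log2 scale (edgeR adjusted p = 0.0656, range over all alternatives 0.0384 to 0.472), and Erc2, at -0.49 ± 0.22 (SE) (edgeR adjusted p = 0.0754, range 0.0341 to 0.341). For the other 8 genes the estimates lay between -0.30 for Ctbp2 and 0.47 for Cacna2d4, each with an SE of 0.16 to 0.26, so that differences of that size could not be told from 0. Leaving out 18-month replicate 3 made Cacna2d4 (0.56) and Cabp4 (0.38) pass, and leaving out 18-month replicate 1 made Cabp4 pass at 0.44. In the libraries of release 7.1.0, Cacnb2 (0.87), Cacna2d4 (0.59) and Pclo (0.42) were higher in rods (17.5% of genes passed there), and in those of release 7.2.0 Erc2 was lower, at -0.71 (28.2% of genes passed).

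A wider list of 73 synaptic genes places the 10 among their partners. Of 13 other calcium channel subunits and channel-binding proteins, 12 could be tested between ribbon and conventional classes. Of these, 10 were lower in the ribbon classes and 1 was higher, with a median of -1.84 on the log2 scale. The lowest were Cacna1a, the pore of P/Q-type channels, at -3.02 ± 0.14 (SE), with 42.4 ± 14.7 CPM in rods and 808 ± 144 CPM in ganglion cells (SD, n = 6), and Cacna1b, the pore of N-type channels, at -2.67 ± 0.13. Cabp5, a calcium-binding protein of bipolar cells, was the only one higher, at 2.73 ± 0.19, and was also a marker used to name cone bipolar clusters. Of 46 testable genes of the vesicle cycle and active zone, 16 were higher and 24 lower. Syn2 and Syn3, which encode synapsins of conventional terminals, were at -3.04 ± 0.11 and -2.75 ± 0.12. Among 12 trans-synaptic partners of the photoreceptor terminal, 10 were higher and 2 lower, led by Slc1a7, the glutamate transporter EAAT5, at 3.37 ± 0.13, followed by the leucine-rich repeat proteins Lrit3 at 2.95 ± 0.26 and Lrit1 at 2.45 ± 0.17. The counts of these lists are to be read against the 69.3% of all genes that passed.

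Between photoreceptors and bipolar cells the other calcium channel genes were again on the same side, with 11 of 12 passing as lower in photoreceptors, where 52.2% of all genes passed in either direction. Cacna2d3 (α2δ-3) was at -3.99 ± 0.27 on the log2 scale, with 1579 ± 344 CPM in rod bipolar cells and 45.8 ± 31.4 CPM in rods (SD, n = 6). Cacna1d, the pore of Cav1.3 channels, was at -3.71 ± 0.23, with 489 ± 86.4 CPM in rod bipolar cells and 52.0 ± 42.1 in rods. Unc13c, a relative of Unc13b, was at -3.66 ± 0.35. Higher in photoreceptors were Lrit3 (2.22 ± 0.25), Egflam, the gene of pikachurin (1.83 ± 0.19), Elfn1 (1.74 ± 0.22) and Tulp1 (1.59 ± 0.16). Of the 46 vesicle cycle genes, 12 were higher and 21 lower, and of the 12 trans-synaptic genes, 7 and 3. Rods and cones, between which none of the 10 genes passed, differed in 18 of 46 vesicle cycle genes (10 higher and 8 lower in rods), 1 of 12 calcium channel genes (lower) and 7 of 12 trans-synaptic genes (1 higher and 6 lower), where 31.9% of all genes passed. Lower in rods were Lrfn2, a synaptic adhesion molecule, at -3.80 ± 0.31, with 43.2 ± 31.9 CPM in rods and 552 ± 381 CPM in cones, Lrit3 at -1.80 ± 0.24, Cacna2d3 at -1.11 ± 0.38 and Slc1a2, the glutamate transporter GLT-1, at -1.08 ± 0.23. Higher in rods was Unc119, at 0.83 ± 0.19. Syn2 and Atp2b2 also passed, but at 16.4 ± 7.17 and 66.5 ± 22.8 CPM in rods against 204 ± 40.5 and 394 ± 102 CPM in ganglion cells they were low there, and ganglion cell markers were detected in rods too, so no expression is read from these.

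The genes whose means over the 8 classes were most like each of the 10 were found by Pearson correlation of log2(CPM + 1) among 8259 genes with a mean of at least 20 CPM. With 8 points and so many genes, high values are common, and they are given as a description only. Nearest to Cabp4 were Tulp1 (r = 0.999), Sag (r = 0.999) and Grk1 (r = 0.997). Cacna2d4 was nearest to Otx2 (r = 0.993), which encodes a homeobox factor of photoreceptors and bipolar cells, and Cacna1f to Farp2 (r = 0.991). For the scaffold genes these were Srsf7 (r = 0.987) for Ctbp2, Dnajc6 (r = 0.983) for Bsn and Agap3 (r = 0.970) for Pclo. Rims2 was nearest to Nptn (r = 0.997), Unc13b to Arhgap24 (r = 0.992), Erc2 to Cmas (r = 0.953) and Cacnb2 to Lamtor4 (r = 0.98). Among the 10 genes themselves the correlation over the 8 class means was 0.926 for Ctbp2 with Cacna1f and -0.36 for Ctbp2 with Bsn.

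The share of nuclei with at least 1 UMI depends on depth, so that each nucleus was thinned to 500 UMIs before shares were compared. At 3 months Cabp4 was then found in 12.4% ± 5.36 of rods (SD, n = 3 libraries) and 1.75% ± 0.783 of ganglion cells, which serve as the background class. Before thinning the shares were 27.7% ± 6.65 and 8.56% ± 1.55, at median depths of 949 and 2936 UMIs. Cacna1f was found in 9.84% ± 1.18 of thinned cones and 0.598% ± 0.345 of thinned ganglion cells at 3 months, and in 11.5% ± 5.22 and 0.883% ± 0.403 at 18 months. Ctbp2 reached 7.92% ± 1.97 of cones and 1.77% ± 0.568 of ganglion cells at 3 months after thinning, and 19.2% ± 8.04 and 11.3% ± 1.5 before it. Most nuclei of these classes therefore had no UMI of these 3 genes, and no share near 0 is read as absence from a cell.

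Age was the study's own comparison, and it was made in 6 classes, none of which had fewer than 20 nuclei in a library. As given above, the mitochondrial limit had removed a larger share of barcodes in the 3-month libraries. With age as the only term, 0 of the 10 genes passed in rods, cones, rod bipolar cells, cone bipolar cells, amacrine cells or Müller glia, and 0% of all genes passed in each of these edgeR fits. At an unadjusted p of 0.05 the fits gave 617, 133, 54, 81, 239 and 380 genes in that order. The genes tested were 10916, 8003, 4855, 6257, 12088 and 6429. Of the 10 genes, 0 reached that p in the first 5 classes and 1, Erc2, did so in Müller glia. DESeq2 called 0 of the 10 in each class, and 0.0134%, 0%, 0%, 0%, 0.006% and 0.306% of all genes in the same order. In rods the largest estimates were Erc2, 0.79 ± 0.65 (SE) on the log2 scale of 18 against 3 months, Ctbp2, -0.72 ± 0.46 (SE), Cacnb2, 0.70 ± 0.56 (SE), and Cabp4, -0.67 ± 0.44 (SE). The rod values given above overlapped between the ages for all 10 genes. In cones the largest estimate was Cacnb2, 0.64 ± 0.33 (SE), which measured 875, 899 and 549.5 CPM in 3-month replicates 1 to 3 and 1109, 1023 and 1596 CPM in 18-month replicates 1 to 3. These values did not overlap between the ages, and they did not pass (edgeR adjusted p = 0.999, range over all alternatives 0.518 to 1). The share of all genes without such an overlap was not counted. No gap between the ages of a single gene, here or below, is therefore read as a result.

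Rod bipolar cells gave estimates from -0.45 for Cabp4 to 0.45 for Erc2, with Rims2 at -0.01 ± 0.21 (SE) and Unc13b at -0.01 ± 0.23 (SE). Cone bipolar cells ran from -0.66 for Cabp4 to 0.23 for Bsn. In cone bipolar cells Cacna1f measured 148, 146 and 147 CPM in 3-month replicates 1 to 3 and 143, 102 and 91.3 CPM in 18-month replicates 1 to 3, which did not overlap between the ages although the difference to 18-month replicate 1 was small, and its estimate was -0.40 ± 0.28 (SE). In amacrine cells, where Cacna1f, Cacna2d4 and Cabp4 were near the background of rod RNA, Unc13b gave 0.48 ± 0.23 (SE). In Müller glia, which form no ribbon synapse, Erc2 measured 269, 228 and 195 CPM in 3-month replicates 1 to 3 and 385, 322 and 498 CPM in 18-month replicates 1 to 3 with every 18-month value above every 3-month value, and the estimate was 0.75 ± 0.30 (SE) (edgeR adjusted p = 0.758, range over all alternatives 0.114 to 1). Cabp4 was estimated lower at 18 months in each of the 6 classes, from -0.68 in Müller glia to -0.22 in cones. The summed rod markers were lower at 18 months without overlap in rods, between 40458 and 70514 CPM at 3 months and between 26149 and 34553 CPM at 18 months. In Müller glia they did not overlap either, ranging from 15696 to 20684 CPM at 3 months and from 6432 to 10408 CPM at 18 months, with none of the 12 markers at 0 in rods or Müller glia. The part of rod RNA in the Cabp4 values outside rods was not tested. Markers of bipolar cells in Müller glia were higher at 18 months without overlap, summing to 412 to 564 CPM at 3 months and 909 to 1630 CPM at 18 months for cone bipolar cells, and to 2933 to 3817 CPM and 4486 to 6975 CPM for rod bipolar cells. Their part in the Erc2 values of Müller glia was not tested.

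**Figure D4:**
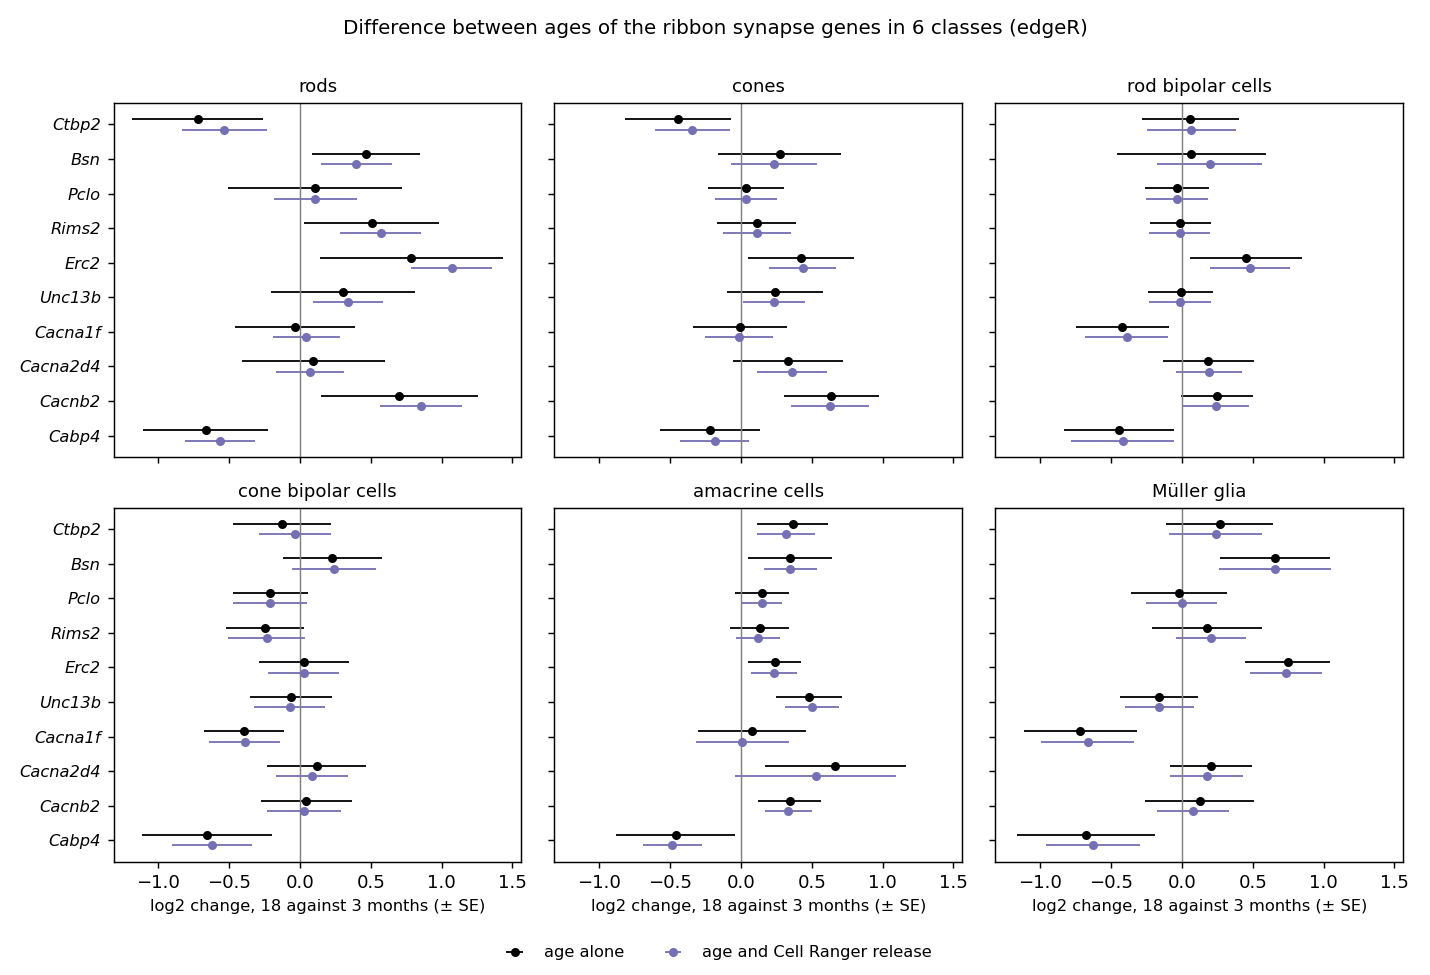
Log2 change of the 10 genes at 18 against 3 months in 6 classes, with SE bars, from edgeR with age alone (black) and with the Cell Ranger release as a further term (violet). Values to the right of 0 are higher at 18 months; of all points, only Erc2 in rods with the release term, at 1.07, passed the test.

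For 8 of the 10 genes, all but Ctbp2 and Cabp4, the rod value of release 7.1.0 was the highest of its age at both ages. With the release as a further term, 1 of the 10 genes passed in rods, Erc2, at 1.07 ± 0.28 (SE) on the log2 scale (edgeR adjusted p = 0.0248, range over all alternatives 6.91e-04 to 1), where 11.5% of 10916 genes passed. Cacnb2 came to 0.85 ± 0.29 (SE) and did not pass (edgeR adjusted p = 0.0597, range 0.00829 to 1). With the replicate block, Erc2 was again the only gene of the 10 to pass, at 1.06 ± 0.29 (SE) (edgeR adjusted p = 0.0380), where 6.72% of genes passed. Within release 7.2.0 alone, Erc2 (1.60 ± 0.28), Cacnb2 (1.25 ± 0.31) and Ctbp2 (-0.87 ± 0.29) passed (log2 change ± SE), as did 21% of genes. In the 1 library per age of release 7.1.0 the log2 ratios had no replicate, and were 0.27 for Erc2, 0.29 for Cacnb2 and 0.44 for Ctbp2, the last in the opposite direction. In the other 5 classes 0 of the 10 genes passed with the release term, where the share of all genes that passed was 0% in cones, 0.0206% in rod bipolar cells, 0.032% in cone bipolar cells, 0.0496% in amacrine cells and 3.72% in Müller glia. Nearest to the threshold there was Erc2 in Müller glia, at 0.73 ± 0.26 (SE) (edgeR adjusted p = 0.114, unadjusted p = 0.00612).

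Of the wider list, 3 of 46 vesicle cycle genes were higher and 3 lower in rods at 18 months with the release term, 2 of 11 other calcium channel genes were higher, and of the 12 trans-synaptic genes 1 was higher and 1 lower. The share of all genes that passed in that fit was 11.5%, and 0.731% without cluster 7, so that these counts do not set the lists apart. Lower at 18 months were Lrit1 (-1.18 ± 0.27), Unc119 (-1.10 ± 0.31), Slc17a7, the vesicular glutamate transporter of photoreceptors (-0.96 ± 0.27), and Vamp2 (-0.89 ± 0.25), as log2 changes with SE. Higher were Cacnb4 (1.10 ± 0.35), Cacna2d1 (1.07 ± 0.31), Unc13c (1.52 ± 0.32) and Lrfn2 (1.21 ± 0.31). All of these values are from the fit with cluster 7. Whether these genes pass without it is not given here, so they are not read as changes with age. Unc13c, at 63.5 ± 64.7 CPM in rods against 1078 ± 158 CPM in Müller glia, and Lrfn2, at 43.2 ± 31.9 CPM in rods against 552 ± 381 CPM in cones, were low in rods. Müller glia markers summed to 941 to 985 CPM in rods at 3 months and to 728, 1932 and 1852 CPM in 18-month replicates 1 to 3, and their part in these values was not tested. With age alone, as given above, no gene of any list passed in rods. In Müller glia with the release term, 2 of 42 vesicle cycle genes were higher and 4 lower. There 2 of 9 other calcium channel genes were higher, and 3.72% of all genes passed. Higher were Cacna1a (1.81 ± 0.31), Syn2 (1.79 ± 0.47), Rimbp2 (1.33 ± 0.38) and Cacnb4 (1.11 ± 0.33). Lower were Cplx4 (-1.26 ± 0.26), Unc119 (-1.23 ± 0.24), Tulp1 (-1.17 ± 0.25) and Slc17a7 (-0.92 ± 0.25). The part of rod or neuronal RNA in these values was not tested. Whether age acted differently in rods and rod bipolar cells was tested as an interaction. It gave 0 of the 10 genes, and 0% of 8629 genes, past the edgeR test. The smallest unadjusted p among the 10 was that of Cacnb2, at 0.72 ± 0.46 (SE) on the log2 scale (edgeR adjusted p = 0.622, range over all alternatives 0.0253 to 1), which passed without 3-month replicate 1, at 1.28.

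The rod class was made of 3 clusters that the libraries filled unequally, and the 10 genes differed between them. Cluster 10 held 75.7% and 91.7% of the rods of 3-month and 18-month replicate 1, the libraries of release 7.1.0. Cluster 7 held 65.1% and 36.7% of the rods of 3-month replicates 2 and 3, 5.95% in 3-month replicate 1 and at most 1.26% in the 18-month libraries. Cluster 1 held 97.9% and 97.4% of the rods of 18-month replicates 2 and 3. Within 3-month replicate 2, Malat1, a nuclear RNA, stood at 9254 CPM in cluster 7 and 48579 CPM in cluster 1. Median depth was 1282 and 788 UMIs and the median mitochondrial share 2.87% and 2.91%.

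Of the 10 genes, 8 were lower in cluster 7 than in cluster 1 in both 3-month replicates 2 and 3, and Ctbp2 and Cabp4 were higher. The share of all genes that were lower in cluster 7 was not counted, so this count does not set the 10 genes apart. Erc2, whose gene spans 856 kb, stood at 50.1 CPM in cluster 7 and 373 CPM in cluster 1 of 3-month replicate 2, and at 47.6 and 249 CPM in replicate 3. Cacnb2 (385 kb) stood at 137 and 1327 CPM in replicate 2 and at 159.6 and 848 CPM in replicate 3. Cabp4 (8.61 kb) was higher in cluster 7, at 374 against 301 CPM and 396 against 320.1 CPM. The log2 ratio of cluster 7 to cluster 1 correlated with log10 gene length over the 10 genes at r = -0.76 and -0.71 in the 2 libraries. Across the same 10 genes, which are not independent replicates, the rod age estimates with age alone correlated with log10 length at r = 0.72, and at r = 0.62 without cluster 7. These correlations with length were not computed over all genes and are not read as a trait of the 10. Without cluster 7 the age estimate of Erc2 in rods was 0.38 ± 0.46 (SE) with age alone and 0.44 ± 0.20 (SE) with the release term, and 0 of the 10 genes passed in either edgeR fit (0% and 0.731% of 8617 genes). The smallest unadjusted p values were 0.407, for Cabp4, and 0.0330, for Erc2, from those fits over all genes. The part that the filling of these clusters or Malat1 has in the age values was not tested beyond this. Without cluster 7 and with age alone, Cacnb2 came to 0.18 ± 0.37 (SE) and Ctbp2 to -0.30 ± 0.39 (SE). Within cluster 1 alone, Erc2 measured 624, 373 and 249 CPM at 3 months and 544, 524 and 495 CPM at 18 months, which overlap. Leaving cluster 7 out changed the rods against cones comparison too, where Cacnb2 (0.60) and Ctbp2 (-0.53) then passed (22.3% of genes).

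**Figure D5:**
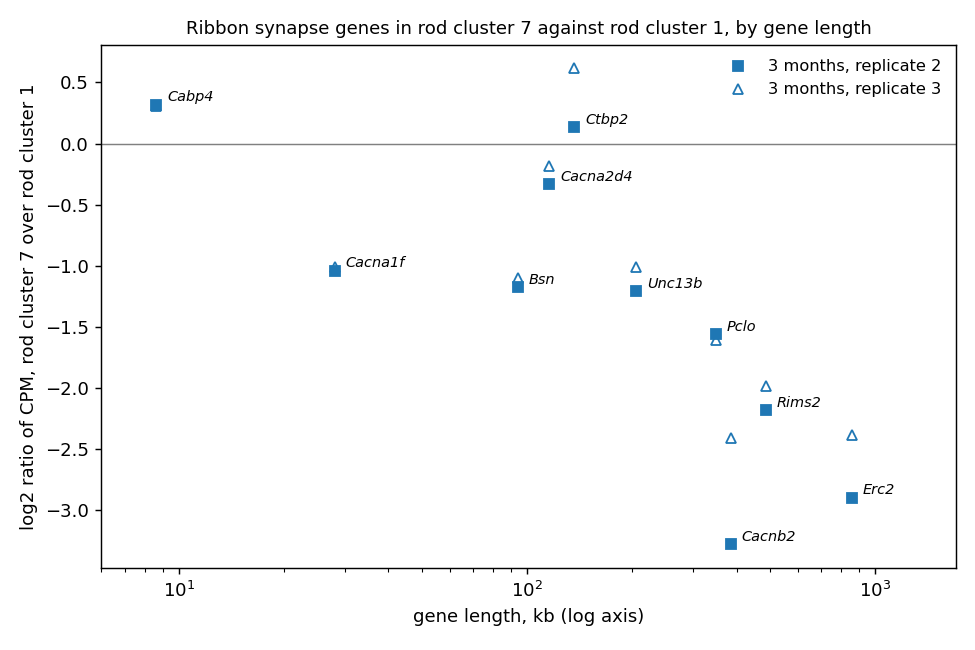
Log2 ratio of CPM in rod cluster 7 over rod cluster 1 for the 10 genes against gene length in kb on a log axis, in 3-month replicates 2 (filled squares) and 3 (open triangles). Cabp4 and Ctbp2 lie above 0, and the longest genes, Cacnb2, Rims2 and Erc2, lie lowest.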

How the data were processed

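The authors deposited 1 matrix of raw UMI counts per library, made with Cell Ranger 7.1.0 (replicate 1 of each age) or 7.2.0 (the other 4), per the file headers. Seurat and build mm10 are named per the submitters' processing notes, with no role stated. Whether intronic reads were counted is not given in the sources used here. Nuclei with over 5% mitochondrial UMIs or under 300 genes were removed, and so was the nuclei with the highest Scrublet doublet scores, as a share that grew with the number of nuclei recovered (4.19% to 12.9% by library). Clustering used scanpy 1.11.5 and leidenalg 0.10.2 (2000 variable genes, 30 components, 15 neighbours, resolution 1). The 10 genes and the 73 of the wider list were kept out of it.

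A cluster was named from marker lists where at least 3 markers and 33.3% of a list were raised, and the numeric limits of that rule were set after the clusters had been seen. Raw counts were summed per library and class and tested with edgeR 4.0.16 (quasi-likelihood, TMM, filterByExpr) in R 4.3.3, with Benjamini-Hochberg adjustment over all genes tested and a threshold of 0.05. Class contrasts had the library as a term. DESeq2 1.42.0 was an alternative. Levels use log2(CPM + 1) where a log is named. The fits were also run on simulated counts without release, replicate or cluster structure, which cannot show how they err on these libraries. All 10 genes are named in every class, and of the wider list up to 4 genes per direction with the largest changes that passed and a mean of at least 20 CPM; 1 gene so chosen is not reported here. The members and lists were chosen with earlier results of these data known.

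Replicate numbers are shared between the ages. Deviations from the age mean correlated within same-numbered rod libraries at 0.589, 0.516 and 0.131. In cone bipolar cells these pairs correlated at 0.608, 0.344 and 0.152, and in Müller glia at 0.653, 0.209 and 0.157. The fits with age alone did not pair the libraries. Pairing by number entered only as the replicate block, an alternative run in each class tested for age. The labels do not say what a number marks, and number 1 coincides with release 7.1.0. In rods, 3-month replicate 3 correlated better with 18-month replicate 2 (0.436) than with its own number. In cones, rod bipolar cells and amacrine cells the third pair was below 0.1.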

Additional observations from a re-analysis of the deposited data

How the results depend on the processing

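Of 1388 values of the 10 genes under other settings, 1353 kept their side of the threshold and, where they passed, their direction (127 of them changed sign without passing in either fit), 10 no longer passed, 22 newly passed and 3 reversed. The 3 that reversed were all in the 2 libraries of Cell Ranger 7.1.0: Erc2 between ribbon and conventional classes, at 0.13 on the log2 scale, Pclo between rods and cones, at 0.42, and Pclo between photoreceptors and bipolar cells, at 0.26. The cause was not tested. The number of the 10 genes that passed with age in rods was 0 with age alone, 1 with the release term, 1 with the replicate block and 3 in the libraries of release 7.2.0. The replicate block changed no other call. Between rods and cones, where 0 passed, the number was 1 with DESeq2, 1 with no low-count filter, 1 at Leiden resolution 0.6, 2 for rods without cluster 7, 1 in the libraries of release 7.2.0 and 3 in those of release 7.1.0, and 0 to 2 when each library was left out in turn. Between photoreceptors and bipolar cells, where 5 passed, it was 3 in release 7.2.0 and 8 in release 7.1.0. For the age effect in rods against rod bipolar cells it was 0 to 1 with each library left out. The restriction to a release and the omission of cluster 7 were chosen after seeing the data. At resolution 0.6 no cluster was named rod bipolar, so no values exist there. In the fit with age alone, the SEs of the 10 genes in rods were 0.38 to 0.65 on the log2 scale, which limits the differences that fit can show. The 116 rod nuclei and 82.2% unnamed nuclei of 18-month replicate 3 limit what it adds.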

Other observations

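Ctbp2 in horizontal cells, a class in which age was not tested, measured 48.2, 54.1 and 31.5 CPM in 3-month replicates 1 to 3 and 58.0, 86.2 and 81.2 CPM in 18-month replicates 1 to 3. The 18-month values were all above the 3-month values, with 16, 23, 14 UMIs of Ctbp2 behind the values at 3 months and 12, 31, 21 at 18 months. In the same class the horizontal cell markers summed to 7641 to 9453 CPM at 3 months and to 10939, 6294 and 3062 CPM in 18-month replicates 1 to 3. Cone bipolar markers there summed to 379 to 698 CPM at 3 months and to 570.1, 1043 and 967 CPM at 18 months, and Müller glia markers to 720.1 to 1068 CPM and to 710.2, 1702 and 1523 CPM. Their part in the Ctbp2 values was not tested. In Müller glia Bsn measured 36.9, 22.1 and 34.8 CPM in 3-month replicates 1 to 3 and 53.5, 49.3 and 58.1 CPM in 18-month replicates 1 to 3, also without overlap between the ages, and its estimate of 0.66 ± 0.39 (SE) on the log2 scale did not pass (edgeR adjusted p = 0.999, range over all alternatives 0.517 to 1). Bipolar markers in Müller glia were likewise higher at 18 months without overlap, and their part was not tested.

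The largest clusters without a name also held the 10 genes. Cluster 0, with 6421 nuclei and 48.5% of 18-month replicate 3, had 1609 CPM of Rims2, 63.3 CPM of Cacna1f and 65.8 CPM of Cabp4 when its nuclei were summed over libraries. Cluster 2, with 4197 nuclei and 26.9% of that library, had 1177, 87.8 and 118 CPM. In both, Cacna1f and Cabp4 lay between their means in ganglion cells and in rods. Cluster 3, with 4098 nuclei and markers of rods and Müller glia, had 737 CPM of Rims2, 75.0 CPM of Cacna1f and 217 CPM of Cabp4. Cluster 4, with 2457 nuclei and markers of rods and rod bipolar cells, had 1746, 205 and 256 CPM. These nuclei are in none of the classes above.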
